A study of Homo sapiens with 6 samples.

Results

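Proteases that act outside the cell, and the inhibitors that hold them in check, were compared between DMS53 cells with and without enforced expression of OC2. The set held 9 of the 62696 genes counted, listed by name with no threshold on their values: the tissue inhibitors of metalloproteinases TIMP1, TIMP2 and TIMP3, the serpins SERPINE2 and SERPINA3, the plasminogen activators PLAU and PLAT, the urokinase receptor PLAUR and the membrane-anchored metalloproteinase MMP14. DMS53 is an established human cell line of SCLC (small cell lung cancer) that expresses neuroendocrine (NE) genes, and OC2 is the homeobox transcription factor encoded by ONECUT2. The 3 control libraries came from cells that carried the empty lentiviral vector pLenti-C-mGFP-P2A-Puro, and the 3 OC2-OE libraries from cells that carried an mGFP-tagged ONECUT2 open reading frame for constitutive expression. Cells of both groups were therefore transduced, grown in the same medium and selected with puromycin, with no time point or drug that set them apart. One cell line was used, the sources used here name no clone, and the figure legends of the study describe the libraries as independent experiments.

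Matrix metalloproteinases (MMPs) are zinc-dependent enzymes that cleave collagens and other matrix proteins, and TIMPs bind their active site and block it. MMP14 is anchored in the plasma membrane, where TIMP2 both inhibits it and, at low amounts, bridges it to the proform of MMP2 for activation. In the plasminogen system, PLAU (urokinase, uPA) and PLAT (tissue-type activator, tPA) cut plasminogen to plasmin, PLAUR (uPAR) holds PLAU at the cell surface, and serpins such as SERPINE2 (protease nexin-1) trap these serine proteases irreversibly. SERPINA3 (alpha-1-antichymotrypsin) is a secreted serpin directed against chymotrypsin-like enzymes.

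The libraries held 16533284 to 19099337 read pairs assigned to genes. Expression is given as CPM, read pairs relative to a library size scaled by TMM in edgeR, and as TPM, which also divides by exon length, where genes are compared with each other. Every value written with ± is the mean and SD of the libraries of a group (n = 3). ONECUT2 itself stood at 24.6 ± 0.332 CPM in control and 3944 ± 70.3 CPM in OC2-OE. Of 17307 genes with enough counts to be tested, 9776 (56.5%) had an adjusted p under 0.001 in edgeR's quasi-likelihood test, 4810 (27.8%) higher and 4966 (28.7%) lower in OC2-OE. A gene is called higher or lower below only under this threshold.

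The promoter windows of TIMP1, MMP14 and PLAU are shown because these are the 3 genes of the set that were higher, and that of PLAUR, which was not called, because it held the only motif match. Each line gives the 250 bases before the start site in the RefSeq promoter table (assembly GRCh38.p14), 5′ to 3′ on the strand of the gene. TIMP1 is at chrX:47582186-47582435 (plus strand), MMP14 at chr14:22836335-22836584 (plus), PLAU at chr10:73910882-73911131 (plus, the second of its 2 windows) and PLAUR at chr19:43670170-43670419 (minus). Capitals mark a match to the AP-1 motif TGANTCA.
TIMP1: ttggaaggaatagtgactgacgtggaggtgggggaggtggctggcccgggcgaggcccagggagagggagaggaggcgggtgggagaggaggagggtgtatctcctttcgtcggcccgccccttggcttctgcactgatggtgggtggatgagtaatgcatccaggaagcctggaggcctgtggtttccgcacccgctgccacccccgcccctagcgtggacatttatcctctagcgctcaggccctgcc
MMP14: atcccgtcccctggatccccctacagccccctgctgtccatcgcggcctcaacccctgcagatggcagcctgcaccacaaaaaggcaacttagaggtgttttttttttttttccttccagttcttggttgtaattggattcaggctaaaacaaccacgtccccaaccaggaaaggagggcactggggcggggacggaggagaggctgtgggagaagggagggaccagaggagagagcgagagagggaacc
PLAU: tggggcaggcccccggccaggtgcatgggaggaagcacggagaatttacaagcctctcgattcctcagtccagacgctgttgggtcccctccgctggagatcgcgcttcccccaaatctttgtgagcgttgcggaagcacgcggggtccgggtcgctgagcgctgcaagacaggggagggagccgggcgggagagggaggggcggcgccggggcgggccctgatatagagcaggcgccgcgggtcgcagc
PLAUR: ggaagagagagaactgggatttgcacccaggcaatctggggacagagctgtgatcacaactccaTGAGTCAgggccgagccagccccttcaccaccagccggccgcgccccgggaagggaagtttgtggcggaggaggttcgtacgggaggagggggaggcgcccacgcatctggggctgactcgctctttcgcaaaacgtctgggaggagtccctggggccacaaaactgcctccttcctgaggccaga

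The table held windows of 250 bases before to 50 after the start site for 7 of the 9 genes, 9 windows in all. Both strands were searched for the ONECUT motif ATNGAT, the AP-1 motif TGANTCA, the STAT motif TTCNNNGAA and the NF-kB consensus by name. None overlapped another in these windows, since a single match was found, TGAGTCA at -186 to -180 in PLAUR, a palindrome in all but its middle base. Of all 35116 windows in the table, 17% held ATNGAT, 7.71% TGANTCA, 7.66% TTCNNNGAA and 5.91% the NF-kB consensus. The windows of TIMP1, MMP14 and PLAU shown above held no exact match to these letters. This says nothing of sites elsewhere, or of sites within the windows that differ from the letters searched. GC content was 65.0% in the TIMP1 window, 55.0% in that of MMP14 and 70.0% in the PLAU window shown (48.7% in its other window), against a median of 58.7% over all windows.

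Of the 9 genes, 8 had at least 1 count and 7 were tested. TIMP1, MMP14 and PLAU were higher in OC2-OE, TIMP2 was lower, and PLAUR, SERPINE2 and PLAT were not called. The 4 calls are 57.1% of the tested genes of the set, beside 56.5% over all genes. The groups did not overlap for 5 of the 7 genes, where 73.2% of all tested genes did not overlap. The median log2 fold change of the 7 was 0.58, beside 0.01 over all tested genes. It is the value of PLAUR, which was not called and had 0.29 without control replicate 1.

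**Figure D1:**
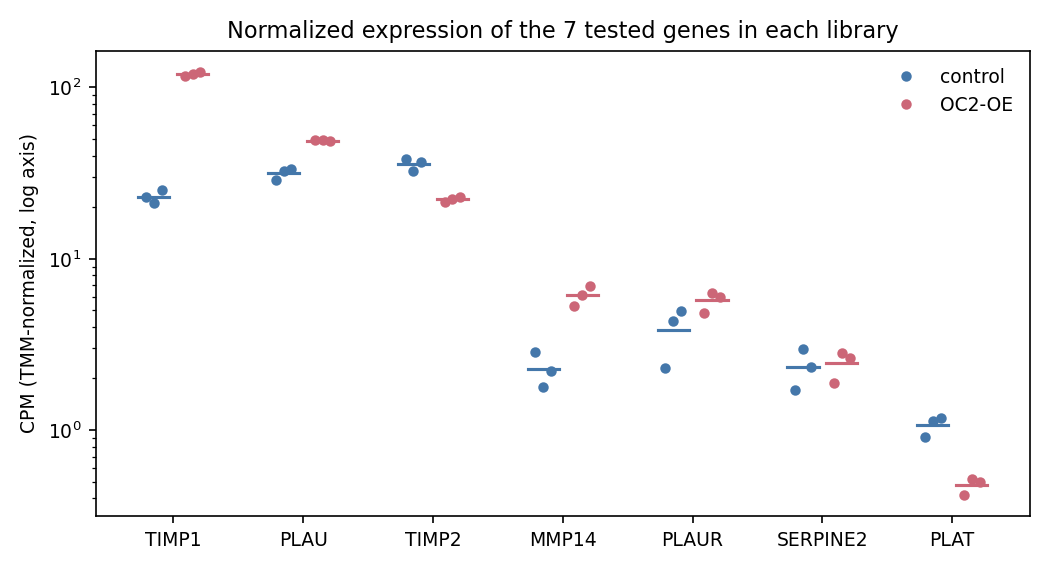
Normalized expression (CPM, log axis) of the 7 tested genes in each library. Points are libraries, 3 per group, and horizontal lines are group means. TIMP1, PLAU, MMP14, TIMP2 and PLAT show no overlap between groups, whereas PLAUR and SERPINE2 do.

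TIMP1 (ENSG00000102265.12, chromosome X from 47582408 to 47586789, plus strand, GRCh38), a secreted inhibitor of most soluble MMPs, showed the largest change of the set. Control libraries held 427, 354 and 410 counts of it, and OC2-OE libraries 2241, 2063 and 2247. Every OC2-OE library thus lay far above every control library. Expression rose from 23.1 ± 2.04 to 119.8 ± 3.25 CPM, with a log2 difference of 2.38 (standard error 0.05, 95% interval 2.28 to 2.47, edgeR adjusted p = 8.0e-78). Only 294 of the tested genes (1.7%) were called with a log2 fold change at least this large.

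TIMP2 (ENSG00000035862.12, chromosome 17 from 78852977 to 78925387, minus strand), the inhibitor that also acts as a bridge between MMP14 and pro-MMP2, moved in the opposite direction. Its counts were 716, 546 and 600 in control and 411, 387 and 420 in OC2-OE. In normalized terms the 3 OC2-OE libraries lay between 21.4 and 23.1 CPM, below the lowest control library at 32.6 CPM. The mean fell from 35.9 ± 2.96 to 22.3 ± 0.804 CPM, with a log2 difference of -0.69 (standard error 0.06, 95% interval -0.82 to -0.57, edgeR adjusted p = 6.6e-19). This is 1.62 times lower, a smaller change than that of TIMP1.

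TIMP3 (ENSG00000100234.12, chromosome 22 from 32801705 to 32863041), the TIMP that binds to the matrix, had 1 count in control replicate 3 and 0 in the other 5 libraries. Of the other metalloproteinase inhibitors, TIMP4 had 22, 26 and 30 counts in control and 31, 17 and 35 in OC2-OE, a log2 fold change of 0.00 (standard error 0.26, edgeR adjusted p = 0.99). RECK, a membrane-anchored inhibitor of MMPs, had 22, 22 and 21 counts in control and 36, 33 and 38 in OC2-OE. Its log2 fold change of 0.63 (standard error 0.26) did not pass (edgeR adjusted p = 0.021). The 3 OC2-OE libraries were all above the 3 control libraries for RECK, at low expression.

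Set on a scale per length, TIMP1 and TIMP2 changed in their proportion. TIMP1 stood at 65.1 ± 6.06 TPM in control and 347.3 ± 9.37 TPM in OC2-OE, and TIMP2 at 26.0 ± 2.23 TPM and 16.6 ± 0.597 TPM. Of the summed TPM of TIMP1, TIMP2 and TIMP3, TIMP1 made up 69.9%, 71.6% and 72.7% in control, against 95.5%, 95.4% and 95.4% in OC2-OE. The summed TPM itself went from 91.2 ± 7.78 to 363.9 ± 9.95. The ratio of TIMP1 to TIMP2 was thus 2.50 ± 0.171 in control and 20.9 ± 0.255 in OC2-OE, a description that combines both calls and was not tested separately. Shares of RNA depend on the scale, and on CPM without length TIMP2 made up 60.9% of the sum in control and TIMP1 84.3% in OC2-OE.

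**Figure D2:**
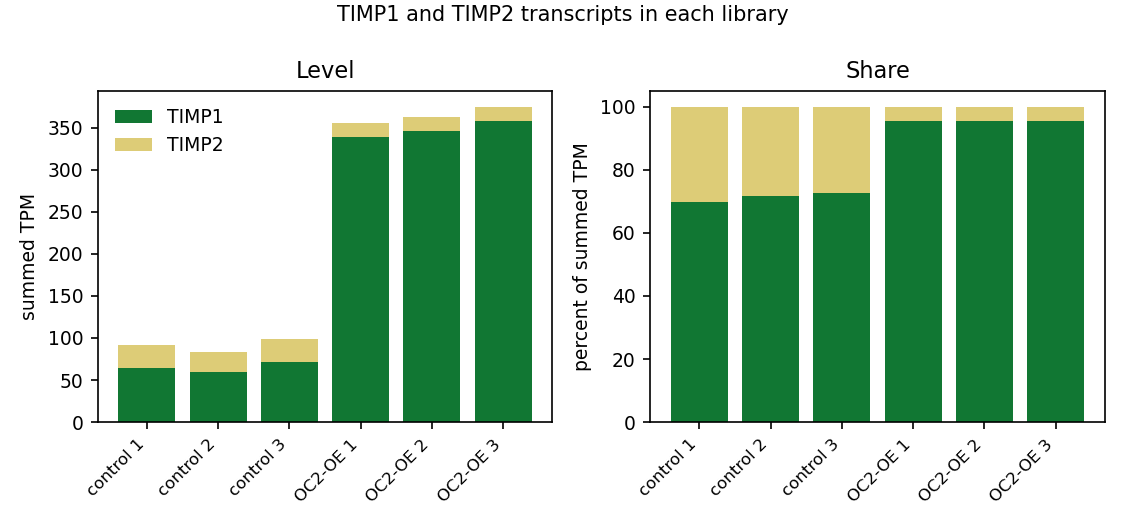
Summed TPM of TIMP1 and TIMP2 in each library (left) and their percent of the sum over TIMP1, TIMP2 and TIMP3 (right). TIMP1 takes 69.9% to 72.7% in the control libraries and 95.4% to 95.5% in the OC2-OE libraries, while the summed level rises.

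TIMP1 and TIMP3 lie inside introns of synapsin genes on the opposite strand, so the strand-specific counts of those hosts were also read. SYN1, which encodes a protein of synaptic vesicles, had 966 counts over the control libraries and 1188 over the OC2-OE libraries, a log2 fold change of 0.22 that did not pass (edgeR adjusted p = 0.0058). SYN3, the host of TIMP3, had 3 and 2 counts. No other annotated gene that overlaps one of the 9 had more than 16 counts in a group.

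PLAU (ENSG00000122861.16, chromosome 10 from 73909177 to 73917496, plus strand), the urokinase-type activator, had 539, 547 and 540 counts in control and 940, 850 and 887 in OC2-OE. The OC2-OE libraries were very alike, at 48.7 to 49.1 CPM, and all lay above the control libraries at 28.9 to 33.2 CPM. The mean rose from 31.6 ± 2.38 to 48.9 ± 0.213 CPM, with a log2 difference of 0.64 (standard error 0.05, 95% interval 0.53 to 0.74, edgeR adjusted p = 1.5e-20), or 1.55-fold.

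PLAT (ENSG00000104368.19, chromosome 8 from 42174718 to 42207709, minus strand), the tissue-type activator, was close to the lower limit of what was tested. Its counts were 17, 19 and 19 in control and 8, 9 and 9 in OC2-OE, and it passed the filter on low counts only through the control libraries. The groups did not overlap, with 1.07 ± 0.141 CPM in control and 0.477 ± 0.0531 CPM in OC2-OE. The log2 fold change of -1.15 had a wide interval of -1.88 to -0.43 and was not called (standard error 0.37, edgeR adjusted p = 0.0035, between 0.0035 and 0.025 over 14 alternatives).

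PLAUR (ENSG00000011422.12, chromosome 19 from 43646095 to 43670547, minus strand), the receptor that holds PLAU at the membrane, had 43, 72 and 81 counts in control and 93, 109 and 109 in OC2-OE. Control replicate 3, at 4.98 CPM, lay above OC2-OE replicate 1, at 4.85 CPM, while control replicate 1 was low at 2.30 CPM. The means were 3.86 ± 1.39 CPM and 5.71 ± 0.757 CPM, and the log2 fold change of 0.58 was not called (standard error 0.17, 95% interval 0.24 to 0.92, edgeR adjusted p = 0.0019). The size and the call of PLAUR depended on single libraries and on the fit. Without control replicate 1 the log2 fold change was 0.29 (edgeR adjusted p = 0.095), and without control replicate 3 it was 0.80 (edgeR adjusted p = 6.6e-05). With all libraries, PLAUR passed the threshold without the filter on low counts (edgeR adjusted p = 0.00041) and with the replicate number as a block (edgeR adjusted p = 0.00064), and over 15 alternatives its adjusted p lay between 6.6e-05 and 0.12.

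SERPINE2 (ENSG00000135919.14, chromosome 2 from 223975045 to 224039318, minus strand), an inhibitor of thrombin and of both plasminogen activators, had 32, 50 and 38 counts in control and 36, 49 and 48 in OC2-OE. The groups overlapped almost fully, at 2.35 ± 0.638 CPM and 2.45 ± 0.502 CPM. The log2 fold change was 0.06 with an interval of -0.36 to 0.49 (standard error 0.21, edgeR adjusted p = 0.80), and its sign changed when control replicate 1 or OC2-OE replicate 2 was left out. That interval leaves room for a change in either direction, and it is not a limit of detection at the threshold used.

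SERPINA3 (ENSG00000196136.18, chromosome 14 from 94612384 to 94624055, plus strand) had 0 counts in all 6 libraries. A count of 0 allows up to 0.157 to 0.184 CPM in a library, taking 3 counts as the limit, which covers counting error only. In the serpin cluster of that chromosome, SERPINA4, SERPINA5, SERPINA9 and SERPINA12 also had 0 counts in all 6 libraries and SERPINA11 had 1 in all. Farther along the cluster, SERPINA1 (alpha-1-antitrypsin), which blocks neutrophil elastase, rose from 16.5 ± 0.707 to 49.8 ± 2.19 CPM, with a log2 difference of 1.6 (edgeR adjusted p = 1.7e-48). SERPINA6, the carrier of corticosteroids in blood, rose from 0.303 ± 0.209 CPM to 3.07 ± 0.536 CPM (log2 fold change 3.29, edgeR adjusted p = 5.9e-17), and SERPINA10 was not called (-0.28, edgeR adjusted p = 0.30). SERPINA1 was singled out after its values were seen.

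MMP14 (ENSG00000157227.14, chromosome 14 from 22836560 to 22849041, plus strand), the membrane-anchored collagenase, was the only protease of the 9 other than PLAU that was called. Its counts were 53, 30 and 36 in control and 101, 107 and 126 in OC2-OE. The control libraries lay between 1.79 and 2.84 CPM and the OC2-OE libraries between 5.27 and 6.92 CPM, without overlap. The mean rose from 2.28 ± 0.525 to 6.12 ± 0.824 CPM, with a log2 difference of 1.41 (standard error 0.17, 95% interval 1.07 to 1.74, edgeR adjusted p = 5.7e-13), or 2.65-fold.

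**Figure D3:**
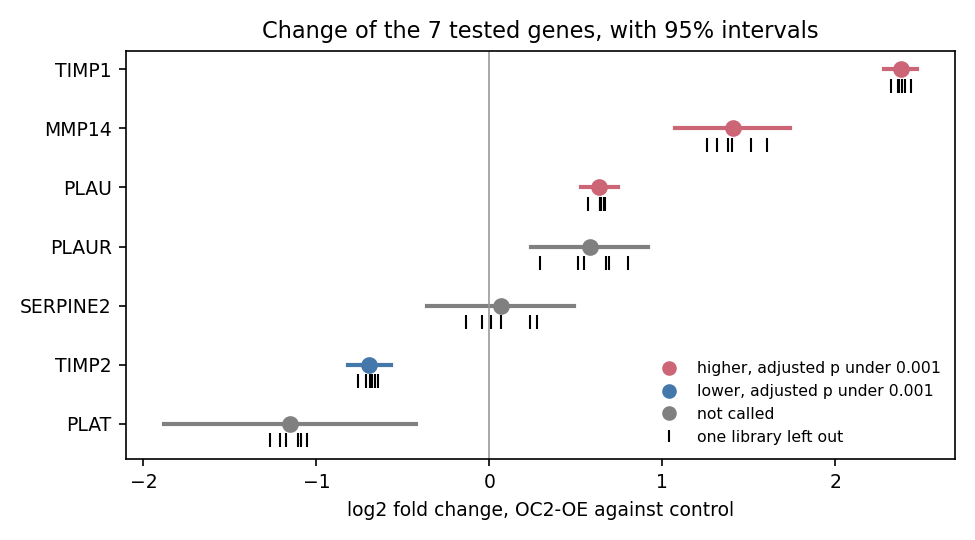
Log2 fold change of OC2-OE against control for the 7 tested genes. Large points are edgeR estimates, bars are 95% intervals, and vertical ticks are the values with 1 library left out. TIMP1, MMP14 and PLAU stay above 0 and TIMP2 and PLAT below 0 in every such fit, while SERPINE2 falls on both sides.

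MMP2, the main proenzyme that MMP14 activates, had 1 count in control replicate 1 and 0 in the other libraries. On TPM within a library, TIMP1 exceeded MMP14 by a ratio of 25.8, 37.7 and 36.4 in control and 70.9, 61.6 and 57.0 in OC2-OE. TIMP2 exceeded MMP14 by 11.1, 14.9 and 13.7 in control and by 3.34, 2.97 and 2.74 in OC2-OE. TIMP1 is known as a weak inhibitor of MMP14 itself, whereas TIMP2 is a strong one. The ratio to MMP14 was higher in OC2-OE for TIMP1 and lower for TIMP2, and neither ratio overlapped between groups.

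The order of levels per length was close to the same in both groups. Levels between genes rest on the deposited lengths, which cover all annotated exons of a gene, and lengths of single transcripts were not tried. TIMP1 led in TPM, followed by PLAU with 43.7 ± 3.33 TPM in control and 69.6 ± 0.323 TPM in OC2-OE, and then by TIMP2, each above the next in every library. PLAUR and MMP14 came next and could not be separated, since the libraries of one overlapped those of the other in both groups. PLAUR stood at 3.54 ± 1.28 TPM and MMP14 at 2.01 ± 0.466 TPM in control, and at 5.37 ± 0.713 TPM and 5.55 ± 0.747 TPM in OC2-OE. SERPINE2 was lower, at 1.07 ± 0.287 TPM and 1.15 ± 0.235 TPM, and PLAT was lowest of the tested genes. Among all tested genes, TIMP1 lay above 81.1% in control and above 98.0% in OC2-OE, and TIMP2 above 62.1% and 51.1%. MMP14 lay above 16% and 29.9%, so that it was a gene of low level in both groups.

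Within the plasminogen system, PLAU exceeded its receptor PLAUR in TPM by a ratio of 18.9, 11.5 and 10.1 in control and 15.3, 11.8 and 12.3 in OC2-OE, with full overlap. PLAU exceeded PLAT by 78.1 ± 4.74 in control and by 272.7 ± 32.4 in OC2-OE, where PLAT rests on under 10 counts in each library. PLAU made up 96.4% of the summed TPM of PLAU, PLAT and SERPINE2 in control and 98.0% in OC2-OE.

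**Figure D4:**
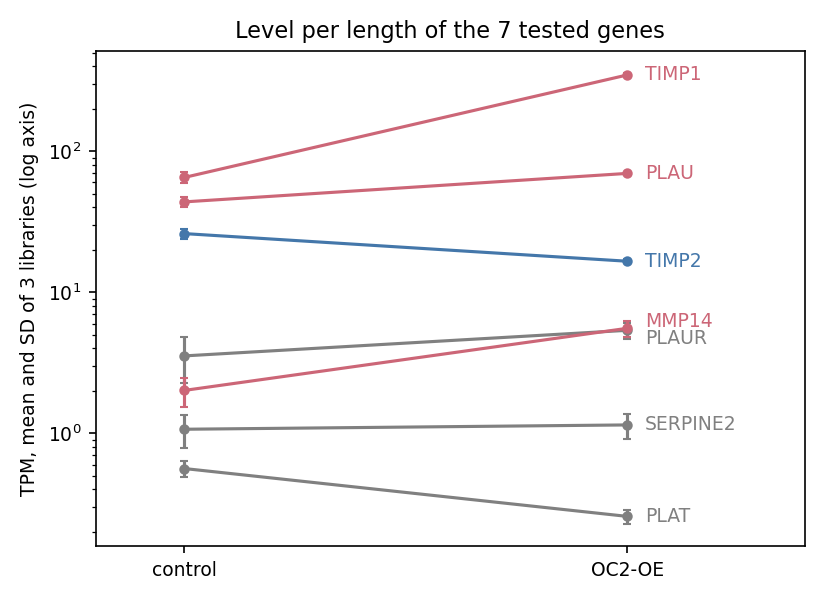
Level per length (TPM, log axis) of the 7 tested genes in control and OC2-OE, as means with the SD of 3 libraries. Red lines are genes called higher, blue lower and grey not called. TIMP1 moves from 65.1 to 347.3 TPM, and the order changes only between MMP14 and PLAUR, whose libraries overlap.

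The wider families were read in 10 lists with 169 genes, the 9 included. Of these, 111 were tested and 78 were called, 49 higher and 29 lower, which is 70.3% of those tested beside 56.5% over all genes. Of the 111, 25 had passed the filter on low counts only through the group where they were high, and 20 of these were called. The median log2 fold change of the 111 was 0.23.

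In the list of the plasminogen system, 8 of 13 genes were tested, and 3 were higher and 1 lower. Of the 8, 2 passed the filter on low counts through 1 group only, PLAT through control and CPB2 through OC2-OE. The median log2 fold change of 0.32 lay between SERPINE2 (0.06) and PLAUR (0.58), neither of them called. Without control replicate 1, SERPINE2 had -0.13 and PLAUR 0.29. ANXA2, a cell-surface binding protein for plasminogen and PLAT, rose from 27.5 ± 0.807 to 87.7 ± 0.553 CPM, with a log2 difference of 1.68 (edgeR adjusted p = 2.1e-61). Its partner S100A10 was not called (-0.06, edgeR adjusted p = 0.47). PLGRKT, a plasminogen receptor, fell by 0.36 on the log2 scale (edgeR adjusted p = 2.6e-06). CPB2, which removes plasminogen-binding lysines from fibrin, had 2 counts over the control libraries and 389 over the OC2-OE libraries (edgeR adjusted p = 2.0e-38). Plasminogen itself, PLG, had 0 counts in control and 1 in OC2-OE.

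Of the 23 MMPs, 14 were tested, 6 higher and 4 lower, with a median log2 fold change of 0.49. The share called was 71.4%, beside 56.5% over all tested genes, and 6 of the 14 passed the filter through 1 group only. MMP14 was one of the 6 that were higher. MMP7 (matrilysin) had 0 counts in control and 55, 53 and 44 in OC2-OE, at least 47.9-fold higher taking 3 counts over the control group as the limit (edgeR adjusted p = 1.4e-22). MMP1 (interstitial collagenase) had 3 counts in control and 208 in OC2-OE (edgeR adjusted p = 1.5e-25). MMP10 (stromelysin-2) rose from 0.5 ± 0.124 to 5.24 ± 0.658 CPM, with a log2 difference of 3.36 (edgeR adjusted p = 3.9e-25). Among membrane-anchored relatives of MMP14, MMP15 fell by 0.96 on the log2 scale from 68.2 ± 6.59 CPM to 34.9 ± 1.25 CPM (edgeR adjusted p = 3.0e-28), MMP16 fell by 1.05 (edgeR adjusted p = 2.3e-12) and MMP24 rose by 0.51 (edgeR adjusted p = 1.6e-09). MMP17 (0.42, edgeR adjusted p = 0.026) and MMP25 (1.38, edgeR adjusted p = 0.0045) were not called. These relatives were picked after their values were seen. MMP15 had more counts than MMP14 in every library of both groups.

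The 34 serpins had 15 tested genes, 7 higher and 1 lower, with a median log2 fold change of 0.06, which is the value of SERPINE2. The share called was 53.3%, beside 56.5% over all tested genes (27.8% higher and 28.7% lower). Of the 15, 5 passed the filter through 1 group only. SERPINB7 had 6 counts in control and 502 in OC2-OE, a log2 fold change of 6.22 (edgeR adjusted p = 3.9e-42). SERPING1, the inhibitor of complement C1 proteases, rose by 3.59 on the log2 scale from 0.150 ± 0.107 CPM to 1.94 ± 0.359 CPM (edgeR adjusted p = 1.9e-13). Of the 16 other protease inhibitors, 12 were tested, 4 of them through 1 group only, with 6 higher and 5 lower (91.7% called). PI3 (elafin), an elastase inhibitor, had 3 counts in control and 239 in OC2-OE (edgeR adjusted p = 5.3e-28). PAPLN rose by 1.67 (edgeR adjusted p = 2.3e-10), and SPOCK3, a testican proteoglycan, fell by 2.52 (edgeR adjusted p = 7.0e-14).

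Of 9 tested ADAM proteases, which shed membrane proteins, 5 were higher and 3 lower (88.9% called, beside 56.5% over all tested genes). ADAM33 passed the filter on low counts only through the control libraries. ADAM17, which releases TNF and ligands of the EGF receptor, rose by 0.69 on the log2 scale (edgeR adjusted p = 1.0e-29), and ADAM33 fell by 3.66 (edgeR adjusted p = 7.4e-16) and ADAM12 by 1.30 (edgeR adjusted p = 1.4e-05). Of 11 tested ADAMTS proteases, 4 of which passed the filter through 1 group only, 3 were higher and 1 lower (36.4% called). ADAMTS13, which cleaves von Willebrand factor, rose by 1.70 (edgeR adjusted p = 3.0e-18), and ADAMTS6 rose by 0.48 (edgeR adjusted p = 0.00011, up to 0.0023 over its alternatives). ADAMTS6 lost its call without control replicate 1, without OC2-OE replicate 2 (edgeR adjusted p = 0.0019) and with DESeq2, and in each of these fits 2 ADAMTS genes were called, 1 of them higher.

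Of 14 tested cathepsins and cystatins, the lysosomal proteases and their inhibitors, 9 were higher and 1 lower, with a median log2 fold change of 0.79. CTSS rose from 6.17 ± 1.62 to 70.7 ± 1.76 CPM, with a log2 difference of 3.5 (edgeR adjusted p = 7.9e-57). CTSD rose by 1.14 (edgeR adjusted p = 1.8e-62) and CTSO by 1.31 (edgeR adjusted p = 1.4e-25). Of 17 tested secreted and membrane serine proteases, 3 of which passed the filter through 1 group only, 5 were higher and 9 lower, with a median of -0.71. Over all tested genes 27.8% were higher and 28.7% lower, and the lists were not tested against each other. TMPRSS4 fell by 2.13 (edgeR adjusted p = 2.9e-41) and KLK10 by 1.76 (edgeR adjusted p = 8.8e-12), while F10, the coagulation factor X gene, rose by 1.73 (edgeR adjusted p = 1.2e-06).

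All 8 genes of the list of surface partners and uptake receptors were tested, 4 higher and 3 lower. The share called was 87.5%, beside 56.5% over all tested genes. LRP1, which takes up complexes of PLAU or PLAT with their serpins, rose by 0.73 on the log2 scale from 16 ± 1.3 CPM to 26.6 ± 1.63 CPM (edgeR adjusted p = 1.2e-16). SORL1, a sorting receptor, fell by 0.75 (edgeR adjusted p = 5.3e-27). CD63, a tetraspanin at the cell surface that binds TIMP1, rose from 270.8 ± 0.469 to 368.2 ± 11.2 CPM, with a log2 difference of 0.44 (edgeR adjusted p = 3.4e-34), and was picked for that role after its value was seen.

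**Figure D5:**
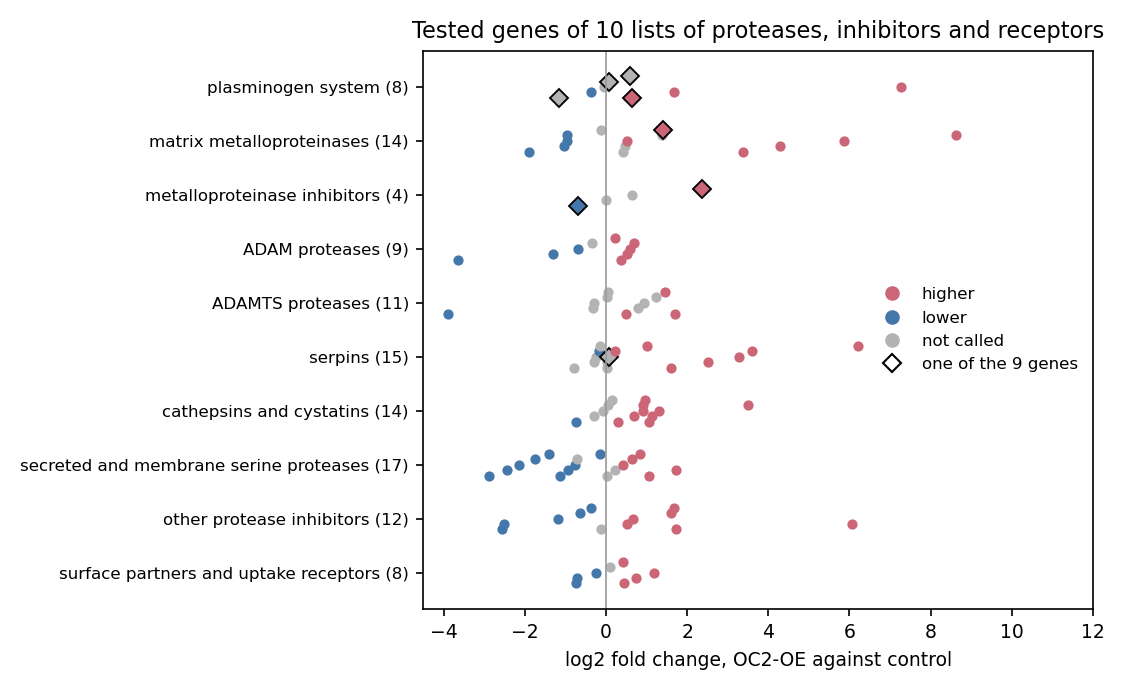
Log2 fold change of the tested genes of 10 lists, with the number tested in parentheses. Red points are called higher, blue lower and grey not called, and outlined diamonds are genes of the set of 9. Cathepsins and cystatins lie mostly above 0, with a median of 0.79, and serine proteases mostly below 0, with a median of -0.71.

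The genes whose 6 log2 CPM values lay nearest to those of TIMP1, by root mean square distance over the 6 libraries, were CASC19 (0.23), SLC9A3-AS1 (0.34) and FKBP14 (0.36). FKBP14, a peptidyl-prolyl isomerase of the endoplasmic reticulum, went from 23.7 ± 0.122 CPM to 84.8 ± 1.72 CPM. The nearest to TIMP2 were CENPJ, at a distance of 0.07, CCDC117 (0.09) and PAX5 (0.09). Nearness of levels over 2 groups is a description only.

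Several of the 9 genes are known from stromal and myeloid cells, so markers of such cells were read beside them. The cultures were of the DMS53 line, so these markers are read as transcripts of that line and not as numbers of stromal or myeloid cells. In bulk RNA, fewer cells in a given state and less RNA per cell cannot be told apart. The 5 NE markers summed to 1104 to 1119 CPM in control and 713.0 to 732.6 CPM in OC2-OE, with SYP, INSM1 and NCAM1 lower, CHGA higher and SCG3 not called. The 6 fibroblast markers summed to 21.1 to 23.9 CPM and 28.1 to 32.1 CPM, most of it COL1A1. Of these, COL1A1 was higher (log2 fold change 0.37, edgeR adjusted p = 7.1e-07), as was PDGFRB with 8 and 49 counts (edgeR adjusted p = 8.1e-06), and COL1A2 with 27 and 65 counts was not called (edgeR adjusted p = 0.0021). PDGFRB and COL1A2 passed the filter on low counts only through the OC2-OE libraries. DCN had 3 counts in each group, LUM 6 and 0, and COL3A1 6 and 2. The 5 myeloid and leukocyte markers summed to 3.8 to 4.55 CPM and 7.33 to 9.11 CPM through CD14 and LYZ, with CSF1R at 15 and 7 counts, PTPRC at 0 and 3 and TYROBP at 0. CD14 was called higher (log2 fold change 0.71, edgeR adjusted p = 1.5e-05). LYZ was also higher (2.44, edgeR adjusted p = 6.1e-11), but passed the filter on low counts only through the OC2-OE libraries. The 4 endothelial markers summed to 12.7 to 15 CPM and 4.17 to 4.73 CPM. KDR and CDH5 of these were lower, PECAM1 was not called, and VWF, with 1 count in control and 17 in OC2-OE, was not tested. CDH5, with 52 counts in control and 3 in OC2-OE, passed the filter on low counts only through the control libraries. The part of these shifts in the results for TIMP1, TIMP2, PLAU and MMP14 was not tested.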

How the data were processed

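Stranded poly(A) RNA from 3 control and 3 OC2-OE cultures was sequenced. The authors aligned reads with STAR version 2.7.9a to GRCh38 and counted read pairs by strand with featureCounts version 1.6.0 on GENCODE release 42, and the deposited values are raw counts per gene with no normalization. Counts were tested in R version 4.3.3 with edgeR version 4.0.16 (TMM, filterByExpr, robust quasi-likelihood, no replicate term), and p-values were adjusted by Benjamini-Hochberg over all 17307 genes. The threshold of 0.001 is that of the study. Standard errors were taken from the fold change and the F statistic. TPM used the deposited exon lengths, which cover all annotated exons of a gene. Ratios and orders of TPM between genes therefore depend on these lengths. Within a group, pairs of libraries differed by 1.31 to 2.08 times the sampling variance, so none was a copy of another. The biological coefficient of variation, the spread beyond counting error, was 2.2%, and the p-values measure only this small spread between libraries. The sources used here do not say whether the libraries of a group came from separate transductions. An effect of OC2 and a difference between the transduced populations cannot be told apart. The 9 genes and the lists were chosen with earlier results of these data known. Genes named in a list are the 3 that changed most in either direction among genes called with a mean of at least 1 CPM, and others are marked in the text. Values of 2 listed genes are not reported here. Alternatives were DESeq2 version 1.42.0, limma version 3.58.1 voom, other scalings, filters and thresholds, ONECUT2 left out of the counts, a replicate block and each library left out. The scripts were tested on simulated data.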

Additional observations from a re-analysis of the deposited data

How the results depend on the processing

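TIMP1, TIMP2, PLAU and MMP14 kept their direction and their call at an adjusted p under 0.001 in every normalization, tool, filter and left-out library tried, with the highest adjusted p at 8.2e-34 for TIMP1, 1.1e-12 for TIMP2, 6.7e-14 for PLAU and 1.0e-08 for MMP14. A minimum absolute log2 fold change of 1 left 2999 genes (17.3%) called (1435 higher, 1564 lower), 2 of the 9 genes (TIMP1 and MMP14, none lower, 0) and 41 genes of the lists (27 higher, 14 lower), and so dropped TIMP2 (-0.69) and PLAU (0.64). At an adjusted p under 0.05, PLAT (-1.15) and PLAUR (0.58) were also called, which made 2 genes of the set lower. PLAUR passed without the filter on low counts (0.58, edgeR adjusted p = 0.00041) and not with DESeq2 (adjusted p = 0.12), and with the replicate number as a block its log2 fold change was 0.59 (edgeR adjusted p = 0.00064). The block left 9642 genes called against 9776 without it, and it changed no call of the other tested genes of the set. Libraries of the same number shared little beyond it, with correlations of their deviations from the group means of -0.0049, 0.027 and 0.018, and not every library correlated best with its own number. The causes were not tested.

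When libraries were left out singly, log2 fold changes ranged from 2.32 to 2.44 for TIMP1, -0.76 to -0.64 for TIMP2, 0.57 to 0.67 for PLAU, 1.26 to 1.61 for MMP14, -1.27 to -1.06 for PLAT, 0.29 to 0.80 for PLAUR and -0.13 to 0.28 for SERPINE2. SERPINE2 had -0.13 without control replicate 1 and -0.05 without OC2-OE replicate 2. The number of genes called ranged from 8944 to 9340, of the set from 4 to 5 and of the lists from 73 to 78. The 1 serpin called lower was lost without OC2-OE replicate 3, with library size only, upper-quartile scaling and DESeq2, and the 1 gene called lower among cathepsins and cystatins without control replicate 2 or 3 or OC2-OE replicate 2 or 3 and with DESeq2 and limma voom. On CPM the TIMP1 share was 39.1% in control and 84.3% in OC2-OE and the TIMP2 share 60.9% and 15.7%. Where at least 10 counts were asked of every library, PLAT was not tested, and fewer genes were tested in the lists: 2 MMPs in place of 6 and 3 serpins in place of 7 were called higher. Library size alone moved the median log2 fold change by 0.05, the largest shift of the scalings, and gave 5337 genes higher and 4427 lower, as upper-quartile scaling gave 5256 and 4521, so that more genes were then higher than lower. Counts under about 20 a library limit PLAT, and TIMP3 and SERPINA3 could not be compared.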

Other observations

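A group of MMP genes lies on chromosome 11 (GRCh38), from MMP7, which starts at 102520508, to MMP13, which starts at 102942995. MMP7, MMP10, MMP1 and MMP12 in this stretch were called higher in OC2-OE, where 27.8% of all tested genes were. All 4 were tested only because of their counts in OC2-OE, since none passed the filter on low counts in control. MMP12 (macrophage elastase) had 1, 1 and 2 counts in control and 25, 32 and 33 in OC2-OE (edgeR adjusted p = 1.5e-13). MMP13 (collagenase-3), which passed in both groups with 71, 60 and 60 counts in control and 88, 110 and 81 in OC2-OE, was not called (log2 fold change 0.47, standard error 0.16, edgeR adjusted p = 0.0057), although its groups did not overlap. MMP3, MMP8, MMP20 and MMP27 of the same stretch were not tested, and MMP27 had 0 counts in all 6 libraries. The stretch was noticed after the values were seen.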
